A study of Homo sapiens with 9 samples.

Results

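The 34 genes described here encode amino acid transporters of the solute carrier families SLC1, SLC3, SLC6, SLC7, SLC36, SLC38 and SLC43. The list was chosen with earlier results of these data known, and it left out 1 further SLC7 carrier. RNA levels of these genes were read on 9 bead arrays of 1 colour, in 3 groups of 3. The arrays were from MKN45, a human gastric cancer line long held in culture. One group was mock cells, another carried the control vector, and the third carried a vector for YAP-S127A. This mutant of the coactivator YAP1 has alanine in place of a serine that the Hippo kinases use to restrain it. All groups share the MKN45 background, and neither the promoter of the vector nor whether the cells were a clone or a pool is given in the sources used here. The arrays had a named probe for 33 of the 34 transporters, and 29 of them entered the tests among 16180 genes. All probes of SLC1A2, SLC6A14, SLC7A2 and SLC38A3 fell under the filter on dim probes, and SLC7A7 had no probe named for it, so its level was not analysed here.

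Amino acid transporters bring in the building blocks of protein and the substrates of nucleotide, glutathione and polyamine synthesis. Some, such as the SLC7 light chains, are exchangers that work only when joined to an SLC3 heavy chain, and others use the sodium or proton gradient to concentrate amino acids. In epithelial tumour cells glutamine uptake by SLC1A5 and SLC38 carriers and leucine uptake by SLC7A5 feed growth signalling through mTORC1, and several of the genes are known to be induced by the transcription factor ATF4 when amino acids run short.

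The median deposited signal of all probes ran from 107.2 to 135.8 intensity units over the 9 arrays, whose number limits precision. It was lowest on YAP-S127A array 3 (107.2) and vector array 2 (108.7), and the other arrays ran from 125.9 to 135.8. Levels below are normalized log2 intensities after background correction, and probes with a mean under 6.18, the lower quartile of all probes, were filtered out. Mock array 1 stood apart from the other 8 on the second principal component (17.9, where the others ran from −9.94 to 3.15), so results that rest on it are also given without it. Of the epithelial markers all 12 passed the filter and 10 had levels over 8. Against both controls 2 of them rose, the keratin genes KRT8 and KRT18 (by 0.85 and 1.54 against vector). Another 4 fell, REG4, TFF1, CLDN18 and CDH17 (REG4 by 1.17 against vector). Of all genes tested, 2.37% were called against both controls, 1.34% as rises and 1.03% as falls. Of the fibroblast and smooth muscle markers 7 of 8 passed the filter, with ACTA2 at 9.39 and PDGFRB under it, and of the leukocyte markers 5 of the 6 with a probe did, with LYZ at 11.2, CD68 at 9.71, PTPRC at 6.21 and CD3E under it. Of the 4 endothelial markers 1 passed, PECAM1 at 6.35. None of the 7 fibroblast markers tested was called in any comparison. Of all genes, 3.45% were called against vector, 4.25% against mock and 0.0124% between vector and mock. The mean level of the 8 fibroblast markers listed was 6.71 in mock, 6.74 in vector and 6.84 in YAP-S127A cells. The 6 leukocyte markers with a probe averaged 7.87, 7.87 and 7.77 in the same order. The 1 gene of that list called, the lysozyme gene LYZ, fell by 0.77 against vector and 0.60 against mock. All arrays are of 1 cell line, so LYZ is not read here as a sign of leukocytes. The part of these markers in the transporter results was not tested. CCN1, an established YAP target, was 2.34 higher in YAP-S127A than in vector arrays and 2.66 higher than in mock arrays. The single YAP1 probe averaged 6.08 in mock, 6.04 in vector and 6.12 in YAP-S127A arrays, all under the filter, and does not check the labels. Whether arrays of 1 group stem from different cultures is not stated, so the spread behind each p-value may be technical. In bulk RNA fewer cells of a type and less RNA per cell cannot be told apart.

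The first comparison asked which transporters differed between YAP-S127A cells and cells with the control vector. Of the 29 tested, 3 were higher, 0 lower and 26 not called at an adjusted p under 0.05 (limma with Benjamini-Hochberg adjustment over all genes). The share of all genes called in this comparison was 3.45%, with 1.76% for rises and 1.70% for falls. The genes that rose were SLC1A3, a glutamate and aspartate transporter, SLC7A5, the light chain of the leucine exchanger LAT1, and SLC36A4, a carrier of tryptophan and proline. Against mock cells 4 of the 29 rose, 1 fell and 24 were not called, where 4.25% of all genes were called, 2.18% as rises and 2.07% as falls. The same 3 rose, as did SLC7A6, a light chain that exchanges cationic for neutral amino acids, while SLC38A4, a sodium-coupled carrier of small neutral amino acids, fell. Against both controls 3 of the 29 rose and 0 fell, where 2.37% of all genes were called, 1.34% as rises and 1.03% as falls. The comparisons share the YAP-S127A arrays and are not independent.

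Most of the family was not called. The median difference over the 29 transporters was 0.025 on the log2 scale against vector and 0.037 against mock, and over all genes tested it was −0.0051 and −0.0022. The count of calls against both controls was 5, with 4 rises and 1 fall, without mock array 1, and 1 without vector array 2, YAP-S127A array 1 or YAP-S127A array 2. Against vector the count was 5 without mock array 1 or mock array 3 and 1 without vector array 2, YAP-S127A array 1 or YAP-S127A array 2. It was 3 against mock without YAP-S127A array 1 or YAP-S127A array 2. The calls over all genes moved too. Against vector they were 559, with 738 without mock array 1 and 291 without YAP-S127A array 2. Against mock they were 687, with 820 without mock array 3 and 325 without YAP-S127A array 2. When arrays were scaled to equal medians, 38.5% of all calls against vector were rises, where quantile normalization gave 50.8%, and against mock 31.3% were rises, where it gave 51.2%. Under that scaling the transporters called were 2 higher and 1 lower in either comparison.

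**Figure D1:**
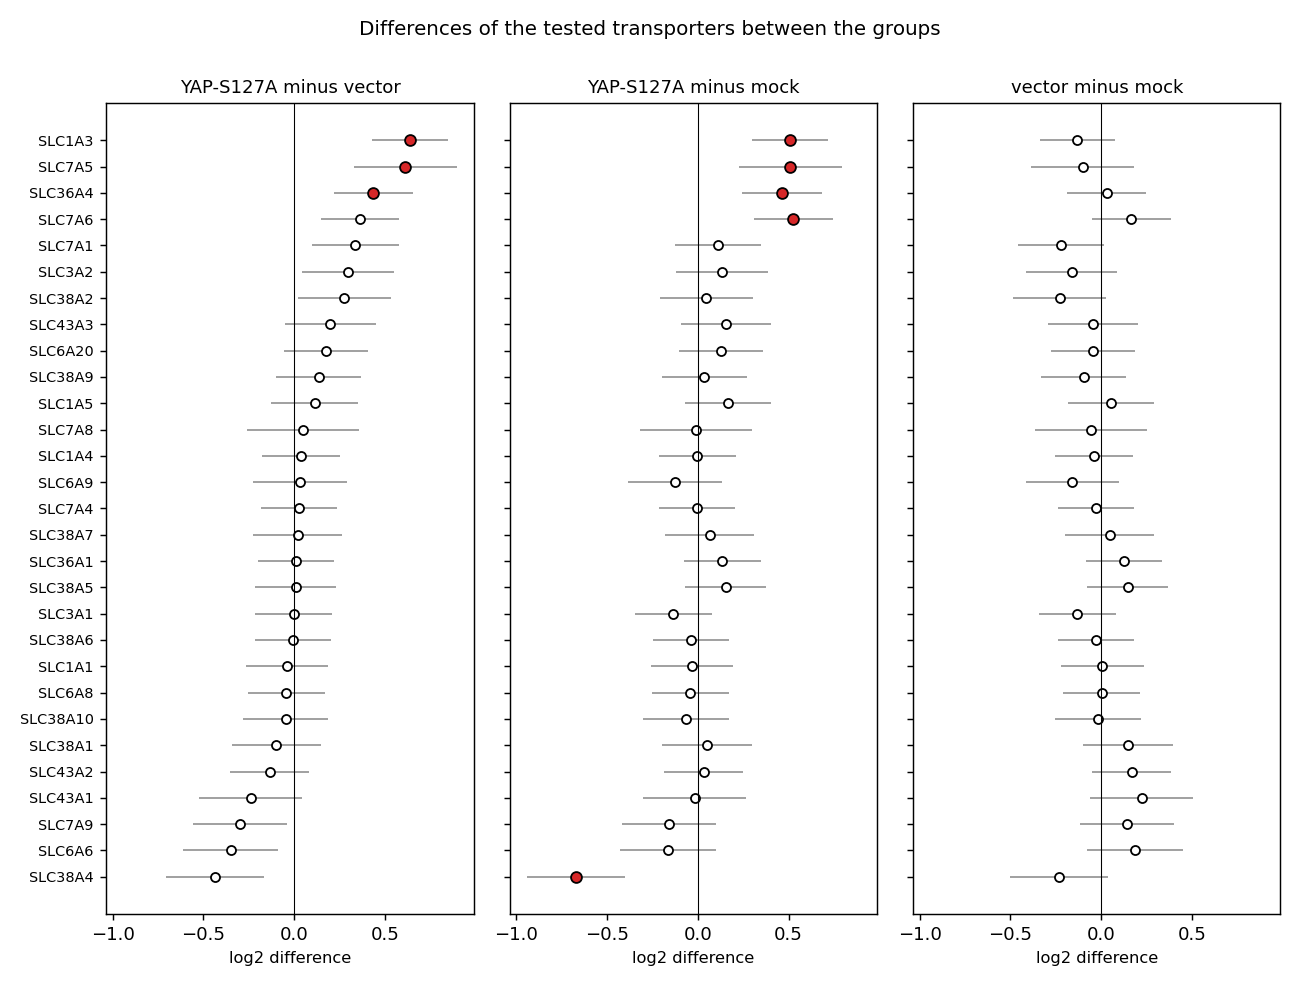
Log2 difference of the 29 tested transporters (x axis) by gene (y axis) for YAP-S127A minus vector, YAP-S127A minus mock and vector minus mock. Points are limma estimates, lines their 95% confidence intervals, and filled red points are the calls at an adjusted p under 0.05: 3 in the left, 5 in the middle and 0 in the right panel.

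SLC1A3 encodes EAAT1, the sodium-coupled importer of glutamate and aspartate best known from glial cells. Its probe (ILMN_1738552) read 6.29, 6.18 and 6.18 on the mock arrays, 6.05, 6.09 and 6.12 on the vector arrays, and 6.78, 6.60 and 6.79 on the YAP-S127A arrays. The YAP-S127A arrays lay above all 6 control arrays. The rise was 0.64 ± 0.10 (log2, SE, n = 3 arrays per group) against vector, or 1.56-fold, with a limma adjusted p of 0.000303. Against mock it was 0.51 ± 0.10, or 1.42-fold (limma, adjusted p = 0.00363). The mean of the 6 control arrays, 6.15, lay under the filter, so this gene was tested only because of its level on the YAP-S127A arrays, and a difference was needed for it to be tested at all. Without it 2 of the other 28 transporters were called against vector, 4 against mock and 2 against both. The deposited signals were 95.3 to 124 on the control arrays and 129 to 153 on the YAP-S127A arrays, close to the median of all probes, and the changes of so dim a probe may be understated. In the deposited log2 values the differences were 0.38 and 0.30, still called.

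SLC7A5 forms LAT1 with the heavy chain SLC3A2 and takes up leucine and other large neutral amino acids in exchange for glutamine. The probe (ILMN_1720373) read 9.18, 8.65 and 8.60 on mock arrays 1 to 3, 8.78, 8.60 and 8.74 on the vector arrays, and 9.50, 9.39 and 9.07 on the YAP-S127A arrays. All YAP-S127A arrays lay above the vector arrays, but mock array 1 lay above YAP-S127A array 3, so YAP-S127A and mock overlapped. SLC7A5 rose by 0.61 ± 0.14 against vector, or 1.53-fold (limma, adjusted p = 0.0106), and by 0.51 ± 0.14 against mock, or 1.42-fold (adjusted p = 0.0334). Leaving out mock array 1, the array that stood apart, gave a rise of 0.70 against mock. The call against mock ended without mock array 2, mock array 3, YAP-S127A array 1 (adjusted p = 0.177) or YAP-S127A array 2. It also ended after scaling to equal medians and with only the arrays of the groups compared. The call against vector ended without vector array 2, YAP-S127A array 1 (adjusted p = 0.0837) or YAP-S127A array 2.

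SLC36A4 belongs to the SLC36 family and carries tryptophan and proline with high affinity. Its levels (ILMN_2082324) were 7.43, 7.57 and 7.35 on mock, 7.50, 7.44 and 7.50 on vector and 8.04, 7.94 and 7.77 on YAP-S127A arrays. No YAP-S127A array overlapped a control array. The gene rose by 0.43 ± 0.11 against vector, or 1.35-fold (limma, adjusted p = 0.0195), and by 0.46 ± 0.11 against mock, or 1.38-fold (adjusted p = 0.0109). A dimmer probe of the gene, with a mean of 6.45, was 0.21 higher than in vector and 0.30 higher than in mock arrays. The call against vector ended without any 1 of the 3 vector arrays or without YAP-S127A arrays 1 or 2, when its probes were averaged, and after scaling to equal medians (adjusted p = 0.215). Against mock it ended without YAP-S127A arrays 1 or 2 and after that scaling (adjusted p = 0.123).

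**Figure D2:**
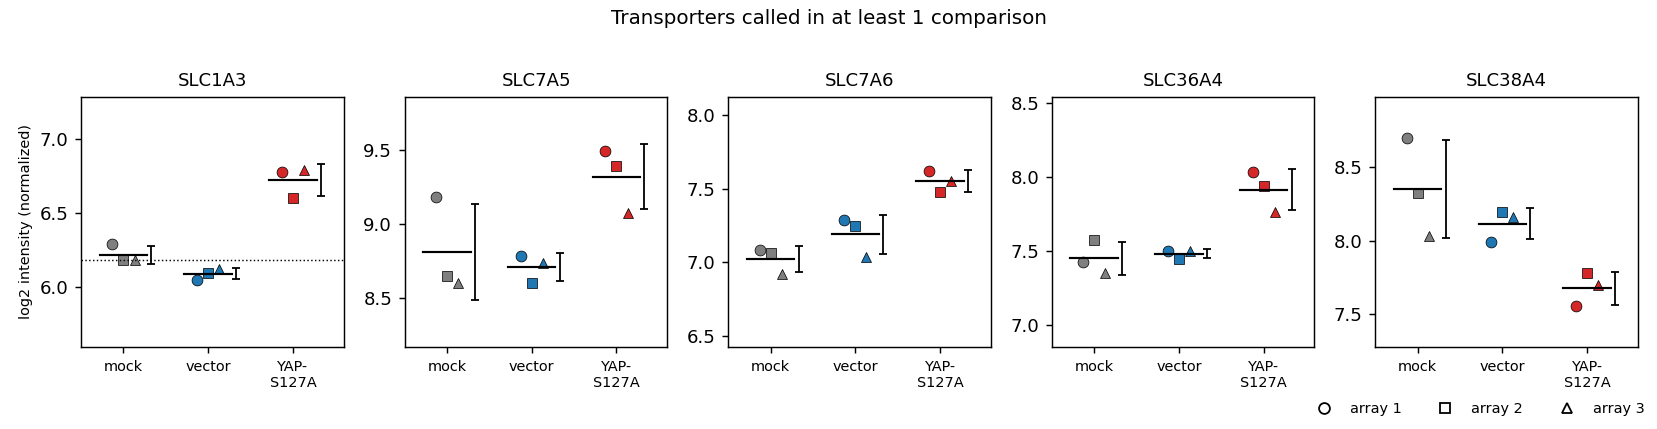
Normalized log2 intensity (y axis) of the 5 transporters called in at least 1 comparison, by group (x axis). Symbols are single arrays (circle 1, square 2, triangle 3), the horizontal bar is the mean, the vertical bar the SD, and the dotted line the filter on dim probes at 6.18. YAP-S127A arrays lie apart from all control arrays for SLC1A3, SLC7A6, SLC36A4 and SLC38A4, and overlap mock array 1 for SLC7A5.

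The 3 genes that rose against both controls are shown with a promoter each. They were picked by those calls, and shared regulation was not tested. The windows hold 250 bases before and 50 bases after a transcript start, come from RefSeq (GRCh38.p14) and are printed from 5′ to 3′ on the strand of the gene. SLC1A3 has 3 such windows and SLC36A4 has 2, and the one with the most matches is given. Capitals mark matches, on either strand, to the TEAD core GGAATG, the amino acid response element TGATGNAA, at which ATF4 is known to act, or the AP-1 element TGANTCA, since AP-1 is known to share sites with YAP and TEAD.
SLC1A3, chr5:36606704-36607003, plus strand: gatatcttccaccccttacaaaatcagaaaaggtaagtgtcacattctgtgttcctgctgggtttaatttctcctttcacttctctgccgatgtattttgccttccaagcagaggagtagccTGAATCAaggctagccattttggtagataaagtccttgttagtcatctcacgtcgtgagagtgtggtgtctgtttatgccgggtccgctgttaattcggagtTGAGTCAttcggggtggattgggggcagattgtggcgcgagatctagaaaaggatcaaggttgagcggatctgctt
SLC7A5, chr16:87869458-87869757, minus strand: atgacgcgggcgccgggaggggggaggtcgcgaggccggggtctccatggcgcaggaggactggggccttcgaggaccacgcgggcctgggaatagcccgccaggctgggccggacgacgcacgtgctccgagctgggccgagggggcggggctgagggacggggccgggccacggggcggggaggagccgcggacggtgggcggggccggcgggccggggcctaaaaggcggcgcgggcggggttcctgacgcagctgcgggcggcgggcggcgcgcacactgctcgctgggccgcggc
SLC36A4, chr11:93197377-93197676, minus strand: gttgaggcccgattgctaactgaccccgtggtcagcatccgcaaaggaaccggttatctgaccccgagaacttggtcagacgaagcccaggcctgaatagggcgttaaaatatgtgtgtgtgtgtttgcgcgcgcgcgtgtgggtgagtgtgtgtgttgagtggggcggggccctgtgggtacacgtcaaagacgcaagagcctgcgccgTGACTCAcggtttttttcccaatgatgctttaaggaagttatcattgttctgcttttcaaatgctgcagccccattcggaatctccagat

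The SLC1A3 window held AP-1 matches starting at −128 and −26 bases from the transcript start, and the SLC36A4 window 1 at −40. The SLC7A5 window, of 80.3% G and C, held none of the 3 motifs. In the other SLC1A3 windows a TGATGNAA match began at −220 and a TEAD match at −76. No match overlapped a match of another motif. Windows were matched for 27 of the 34 transporters, 48 windows in all, and SLC1A2, SLC3A1, SLC6A6, SLC7A2, SLC7A4, SLC38A3 and SLC43A3 were not matched. TEAD matches lay in 5 of the 48 windows, or 10.4%, where 14.0% of all 35116 windows held one. TGATGNAA lay in 6, or 12.5%, against 3.62% of all windows, in SLC1A3, SLC1A4, SLC1A5, SLC3A2, SLC7A1 and SLC38A1. TGANTCA lay in 9, or 18.8%, against 7.71%. Windows of 1 gene can overlap, and a match describes letters and not a bound site.

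SLC7A6 is y+LAT2, a light chain that exports arginine in exchange for glutamine and sodium and, like SLC7A5, needs SLC3A2. Its brighter probe (ILMN_2324561) read 7.08, 7.06 and 6.92 on mock, 7.28, 7.24 and 7.04 on vector and 7.62, 7.48 and 7.55 on YAP-S127A arrays. The YAP-S127A arrays lay above all 6 controls, and the vector arrays overlapped the mock arrays. It rose by 0.53 ± 0.10 against mock, or 1.44-fold (limma, adjusted p = 0.00363). The difference from vector was 0.36 ± 0.10 and did not pass (adjusted p = 0.058). The further probe, of similar mean level (7.14), differed by 0.16 from mock and 0.19 from vector, and with the mean of both probes the call against mock ended (adjusted p = 0.0795).

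SLC38A4, which encodes the system A carrier SNAT4 and is known mainly from liver and placenta, was the single transporter that fell. Its probe (ILMN_1794890) read 8.70, 8.32 and 8.03 on mock, 7.99, 8.19 and 8.16 on vector and 7.56, 7.78 and 7.70 on YAP-S127A arrays. All YAP-S127A arrays lay under all 6 control arrays. The change against mock was −0.67 ± 0.13, a ratio of 0.628 (limma, adjusted p = 0.00316), and without mock array 1, the highest, it was −0.50. Against vector the difference was −0.44 ± 0.13 and did not pass (adjusted p = 0.0697). Scaling to equal medians brought SLC38A4 past the threshold against both controls. In all, 4 of the 29 transporters had YAP-S127A arrays apart from every control array, 3 above and 1 below. So did 11.3% of all genes tested, 5.62% above and 5.64% below. SLC1A3, tested only because of its level on the YAP-S127A arrays, is among those above in this count and in those that follow. Set against the vector arrays alone, the YAP-S127A arrays lay apart in 8 transporters, 7 of them above, where 22.7% of all genes did so and 10.6% above. Set against the mock arrays alone it was 6, with 5 above, where 20.4% of all genes did so and 10.3% above.

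SLC3A2, the heavy chain 4F2hc that carries SLC7A5 and SLC7A6 to the membrane, was not called. Levels of its brighter probe were 9.20, 9.19 and 8.96 in mock, 9.02, 8.88 and 8.96 in vector and 9.45, 9.36 and 8.94 in YAP-S127A arrays. YAP-S127A array 3 fell within the control range while arrays 1 and 2 lay above it. The difference was 0.30 from vector (95% confidence interval 0.05 to 0.55, limma, adjusted p = 0.216) and 0.13 from mock (−0.12 to 0.39, adjusted p = 0.644). Without YAP-S127A array 3 SLC3A2 was called as higher than in vector. Its dimmer probe differed by −0.09 from vector and 0.01 from mock. SLC3A1, the heavy chain that pairs with SLC7A9 in cystine and dibasic amino acid uptake, differed by −0.13 from mock with an adjusted p of 0.562. SLC7A9 itself was 0.30 lower than in vector (adjusted p = 0.228).

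The main glutamine carriers showed no call. SLC1A5, the exchanger ASCT2, read 9.61, 9.43 and 9.16 on mock, 9.37, 9.49 and 9.51 on vector and 9.62, 9.43 and 9.64 on YAP-S127A arrays, and the groups overlapped. It differed by 0.11 from vector (95% confidence interval −0.13 to 0.35) and 0.17 from mock (−0.07 to 0.41), so that changes beyond 0.41 on this scale lie outside both intervals. SLC38A2, the sodium-coupled carrier SNAT2 that cells raise when amino acids run short, read 10.002, 10.03 and 9.55 on mock, 9.66, 9.44 and 9.79 on vector and 9.86, 9.90 and 9.96 on YAP-S127A arrays. YAP-S127A arrays lay above the vector arrays and inside the mock range. The difference was 0.28 from vector (0.02 to 0.53, adjusted p = 0.272) and 0.05 from mock (−0.21 to 0.31). SLC38A1, a related glutamine carrier, differed by −0.10 and 0.05.

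SLC7A1, the cationic amino acid transporter CAT1, was singled out after its values were seen, as it showed the same order of groups as SLC38A2. Its means were 10.19 ± 0.20 (SD, n = 3) in mock, 9.97 ± 0.15 in vector and 10.30 ± 0.06 in YAP-S127A cells. The difference from vector was 0.34 (limma, adjusted p = 0.12) and that from mock 0.11. At an unadjusted p under 0.05, 7 transporters were higher and 3 lower than in vector, or 34.5% of those tested. Of all genes 15.6% passed there, in either direction. Against mock 4 transporters were higher and 1 lower, or 17.2%, where 17.0% of all genes passed. SLC1A3, tested only because of its level on the YAP-S127A arrays, is among those higher in both comparisons. The 5 transporters that passed this unadjusted threshold against vector only were SLC3A2, SLC7A1, SLC38A2, SLC6A6 and SLC7A9. The difference between both comparisons is that of vector and mock, in which none of the 5 was called. In that order their vector arrays stood −0.16, −0.22, −0.23, 0.19 and 0.14 from mock. Each of these values widens the difference from vector, and passing against vector only favours such values.

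**Figure D3:**
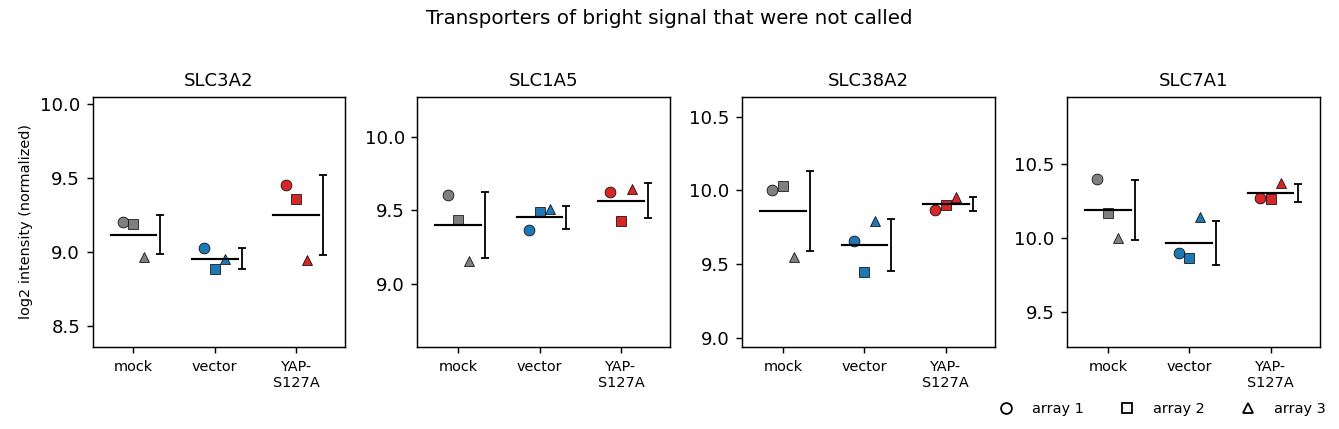
Normalized log2 intensity (y axis) by group (x axis) of SLC3A2, SLC1A5, SLC38A2 and SLC7A1, none of them called. Symbols are single arrays (circle 1, square 2, triangle 3), horizontal bars are means and vertical bars SDs. For SLC38A2 and SLC7A1 the YAP-S127A arrays lie above the vector arrays and within the range of the mock arrays.

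The other transporters not called are given by class. Among the SLC1 genes the neuronal and epithelial glutamate carrier SLC1A1 differed by −0.04 from vector and −0.03 from mock, and the alanine and serine carrier SLC1A4 by 0.04 and −0.0017. In the SLC6 family the taurine carrier SLC6A6 was 0.35 lower than in vector (limma, adjusted p = 0.15) and the creatine carrier SLC6A8, the glycine carrier SLC6A9 and the proline carrier SLC6A20 differed by −0.04, 0.03 and 0.18. On YAP-S127A array 3 SLC6A9 stood at 6.46, under every other array, where YAP-S127A arrays 1 and 2 read 7.05 and 6.96. SLC7A8, a light chain like SLC7A5, differed by 0.05, and SLC7A4, for which no transport function is established, by 0.03. Of the SLC7A8 probes under the filter, ILMN_1747397 was 0.35 higher than in vector and ILMN_1695093 was 0.09 lower.

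The SLC38 family was nearly flat apart from SLC38A4 and SLC38A2. SLC38A9, the lysosomal carrier that reports arginine to mTORC1, differed by 0.13 from vector and 0.04 from mock. The lysosomal glutamine carrier SLC38A7 (0.02 and 0.07), SLC38A5 (0.01 and 0.15), SLC38A6 (−0.01 and −0.04) and SLC38A10 (−0.05 and −0.07) were not called. A dimmer SLC38A10 probe, with a mean of 7.42, was 0.30 lower than in vector. SLC36A1, a proton-coupled carrier also found on lysosomes, differed by 0.01 and 0.14. The leucine carriers SLC43A1 and SLC43A2 differed by −0.24 and −0.13 from vector, and SLC43A3, known to carry purine nucleobases, by 0.20, while another of its probes was 0.29 lower. Over all 24 transporters called in no comparison, differences ran from −0.35 to 0.34 against vector and from −0.17 to 0.17 against mock, and the half-width of their 95% confidence intervals was 0.21 to 0.31. A call needs an adjusted p, and differences beyond these half-widths, such as the −0.35 of SLC6A6 and the 0.34 of SLC7A1 against vector, were not called either.

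**Figure D4:**
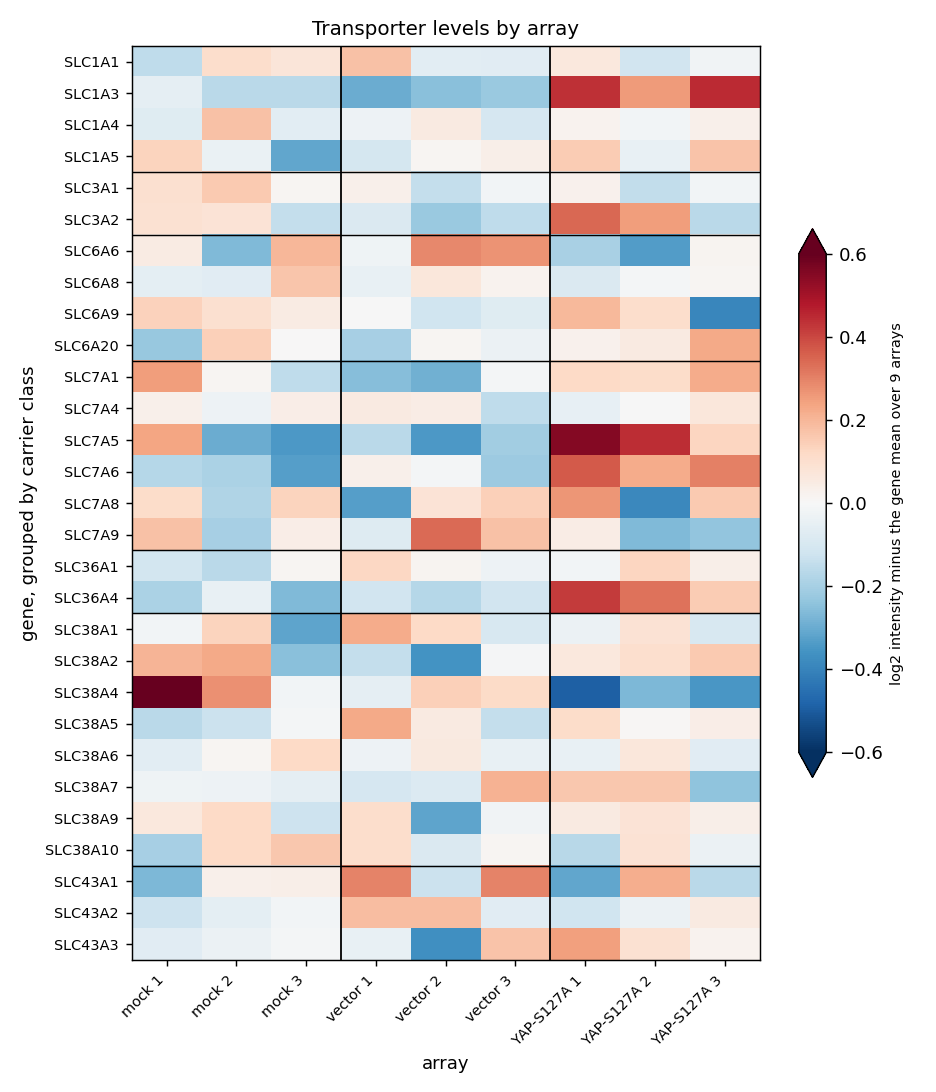
Normalized log2 intensity of each tested transporter (rows, grouped by carrier class) on each array (columns) minus the gene's mean over the 9 arrays, with red above and blue below it and the scale capped at 0.6 either way. Among the rows red on all 3 YAP-S127A arrays are SLC1A3, SLC7A5, SLC7A6 and SLC36A4. SLC38A4 is blue on those arrays, while most rows show no block by group.

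Vector and mock cells were compared to see whether carrying a vector moved the transporters, and this comparison is also the difference between both YAP-S127A comparisons. None of the 29 was called (limma, lowest adjusted p = 0.903), and 0.0124% of all genes were called. At an unadjusted p under 0.05, 0 of the 29 passed, where 5.63% of all genes did. Differences ran from −0.23 for SLC38A4 to 0.22 for SLC43A1. The vector arrays lay apart from the mock arrays in 2 of the 29, SLC1A3 and SLC6A9, both lower in vector, as they did in 10.1% of all genes tested, 5.61% higher and 4.52% lower. The median difference was −0.028, where that of all genes was 0.0034.

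Other genes of amino acid supply were examined as background to the transporters. Of all genes tested, 3.45% were called against vector and 4.25% against mock. Of 24 tested genes of the ATF4 and amino acid response, 3 rose against vector, 0 fell and 21 were not called, while against mock 0 rose and 2 fell. Those that rose were the stress factor ATF3 by 0.68, the eIF2 phosphatase subunit PPP1R15A by 0.55 and the serine synthesis enzyme PSAT1 by 0.45 (limma, adjusted p = 0.00561, 0.00736 and 0.0128). They differed by 0.28, 0.24 and 0.18 from mock, without a call, and the vector arrays stood −0.39, −0.31 and −0.27 from mock, without a call either. At an unadjusted p under 0.05, 4 of the 24 were higher and 3 lower than in vector, 0 higher and 4 lower than in mock, and 0 higher and 7 lower in vector than in mock. Over all genes 15.6%, 17.0% and 5.63% passed that threshold in these comparisons. DDIT4, an inhibitor of mTORC1, fell by 0.42 and the lipoprotein receptor VLDLR by 0.39 against mock (adjusted p = 0.0448 and 0.0289). The median of the list was 0.07 against vector, −0.06 against mock and −0.12 for vector against mock. Its mean on mock array 1 was 0.22 above that over all arrays, and on the other arrays it lay between −0.15 and 0.09. The call of ATF3 ended without vector array 2, and that of PSAT1 without vector arrays 2 or 3 or YAP-S127A arrays 2 or 3. Those of DDIT4 and VLDLR ended without mock arrays 1 or 3, among other arrays. The calls of PPP1R15A, PSAT1 and VLDLR ended when arrays were scaled to equal medians.

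Of all genes tested, 3.45% were called against vector and 4.25% against mock, shares to be read beside the counts of the next lists. Of 18 tested cytosolic aminoacyl-tRNA synthetases, 1 rose against vector, SARS1 by 0.38 (limma, adjusted p = 0.0311), and 0 were called against mock. At an unadjusted p under 0.05, 6 of the 18 passed against vector and 5 against mock, all as higher. The shares of all genes that passed, 15.6% and 17.0%, count both directions, and shares of rises alone were not computed. The median of the list was 0.16 against vector and 0.10 against mock, and 13 of the 18 had a positive difference in either comparison, where all genes had 48.6% and 49.4%. The call of SARS1 ended without any 1 of the vector arrays or without YAP-S127A arrays 1 or 2, and after scaling to equal medians. Among 17 genes of branched-chain and cationic amino acid use, the spermidine synthase gene SRM rose by 0.80 against vector (limma, adjusted p = 0.000859) and 0.77 against mock (adjusted p = 0.00122). The ornithine decarboxylase gene ODC1 rose by 0.45 against mock (adjusted p = 0.0202), and the other 15 were not called there. The list's median was 0.06 against vector and 0.0034 against mock. The ODC1 call ended without mock array 1 or YAP-S127A arrays 1 or 2, and after scaling to equal medians.

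Among 18 enzymes of glutamine, glutamate and aspartate use 0 were called against vector by limma, where 3.45% of all genes were. An unadjusted p under 0.05 was passed by 7, 4 higher and 3 lower, where 15.6% of all genes passed. Against mock CAD, the first enzyme of pyrimidine synthesis, rose by 0.39 (limma, adjusted p = 0.0321), while GFPT1, which opens hexosamine synthesis, fell by 0.40 (adjusted p = 0.0341) and the proline synthesis enzyme ALDH18A1 fell by 0.36 (adjusted p = 0.0488). The list's median was 0.07 against vector and 0.04 against mock. All 3 calls ended when mock array 1 was left out and after scaling to equal medians. CAD stood 0.36 higher in vector than in mock, without a call. Of all genes tested, 3.45% were called against vector and 4.25% against mock. Of 27 tested genes that sense amino acids upstream of mTORC1, 0 were called against vector or mock by limma. At an unadjusted p under 0.05, 1 passed against vector and 2 against mock, where 15.6% and 17.0% of all genes did. The list's median difference was 0.00081 and −0.04.

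**Figure D5:**
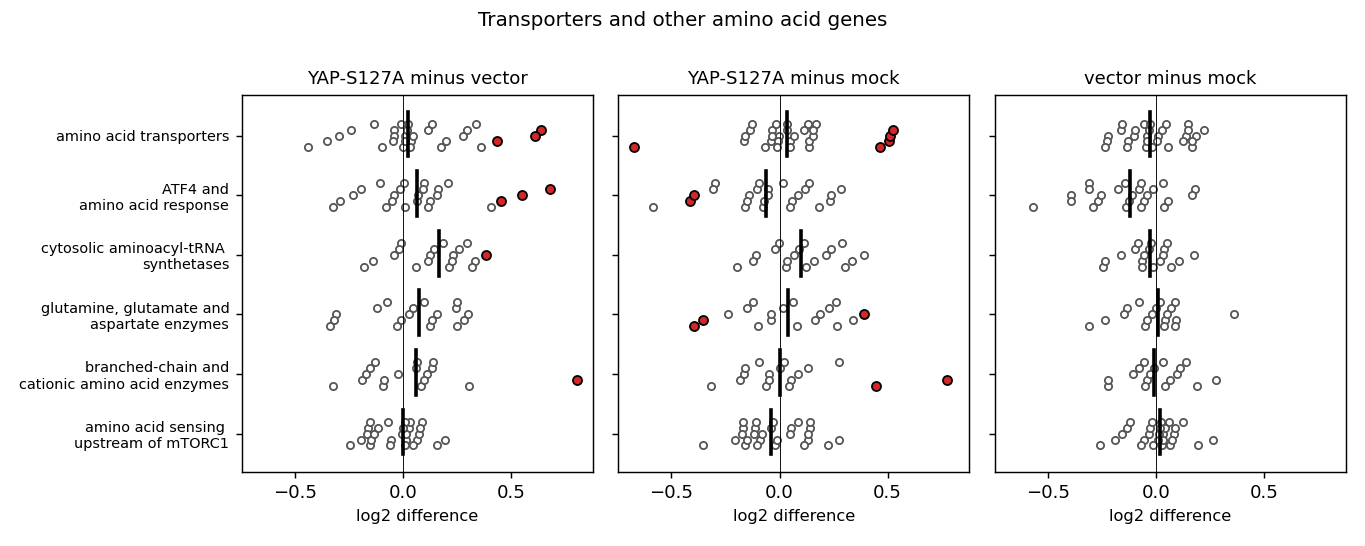
Log2 difference (x axis) of the tested transporters and of the genes in 5 lists of amino acid supply (rows), for the 3 comparisons. Each point is a gene, filled red where called at an adjusted p under 0.05, and the vertical bar is the list's median. Points are spread vertically for legibility. The transporters have 3 red points against vector and 5 against mock, and the right panel has none.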

How the data were processed

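Total RNA of 9 MKN45 samples was labelled with biotin and hybridised to Illumina bead arrays, per the labels' protocols. The deposited signal table held intensity values for 47231 probes on a linear scale, with no background subtraction visible. The deposited series matrix held log2 values with identical quantiles on every array (median 6.92), and each column ranked its probes as the same sample's signals did. BeadStudio is named in the submitters' processing notes, with no version or settings given.

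Signals were corrected with normexp (offset 50, limma 3.58.1, R 4.3.3), quantile normalized and expressed as log2. Of 47231 probes, 35423 had a mean above the lower quartile (6.18). A probe table gave 1 symbol to 30113 probes, several to 8 and none to 17110, and 30074 symbols were updated by gene ID. The probe with the highest mean stood for each of 16180 genes. Group means were fitted by limma over all 9 arrays together (6 residual and 16.4 prior degrees of freedom). A call is an adjusted p under 0.05 (Benjamini-Hochberg, over all genes). The fit was tested on simulated data.

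The transporters and lists were chosen with earlier results of these data known. All 34 transporters are accounted for. Values per array were given for those called in any comparison and for SLC3A2, SLC7A5, SLC1A5 and SLC38A2, and up to 4 called genes were named per list and comparison. Alternatives were cyclic loess, scaling to equal medians, leaving out the background correction, the deposited log2 values, a filter at the median or none, the mean of the probes, only the groups compared, trend and robust moderation, replicate number as a block, a threshold of 0.01, and leaving out each array before normalization.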

Additional observations from a re-analysis of the deposited data

How the results depend on the processing

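Of 8 transporter calls, 3 held under every alternative in which the gene was tested (SLC1A3 against both controls and SLC38A4 against mock), 5 ended under at least 1, and 0 reversed. SLC1A3 failed the filter at the median of all probes and has no value there. It passed the main filter only through its level on the YAP-S127A arrays, so a difference was needed for it to be tested. Of 12 calls of list genes, the 2 of SRM held throughout and 0 reversed. Against vector 3 transporters were called, 5 with only the arrays of the groups compared and 1 at a threshold of 0.01, and 1 to 5 when single arrays were left out. Against mock 5 were called, 3 after scaling to equal medians and 3 at the threshold of 0.01, and 3 to 5 without single arrays. Against both controls it was 3, 1 at the threshold of 0.01, and 1 to 5 without single arrays. Between vector and mock 0 were called under all alternatives.

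The median difference of the transporters against vector was 0.025, −0.00074 after scaling to equal medians and 0.0014 to 0.053 without single arrays. Against mock it was 0.037, −0.012 after that scaling and 0.012 to 0.080 without single arrays. For vector against mock it was −0.028, 0.0029 both with no filter and with the mean of a gene's probes, and −0.033 to 0.030 without single arrays. The cause of these shifts was not tested.

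Over all genes 559 were called against vector (271 to 758 under the other alternatives, 291 to 738 without single arrays), 687 against mock (291 to 834 and 325 to 820) and 2 between the controls (1 to 2 and 1 to 54). With replicate number as a block, 3, 5, 0 and 3 transporters were called against vector, against mock, between the controls and against both, as without it. That block gave 558 genes against vector and 648 against mock. Same-numbered arrays of different groups had deviations from their group means that correlated at −0.146 to 0.100, and differently numbered ones at −0.090 to 0.131. These ranges overlap and cannot decide whether same-numbered arrays share more than a number. Of the calls named, the block ended that of ALDH18A1.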
